A study of Mus musculus with 3 samples.

Results

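The genes described here are 38 listed genes of the NRF2 pathway, of glutathione metabolism and of the neighbouring redox enzymes, chosen by gene symbol and read on 3 arrays of mouse long-term haematopoietic stem cells. Of the 38, 35 were read under their symbol among 23185 named genes, and 31 of these lay at or above the level minimum, a log2 level of 4.553 averaged over the 3 arrays, which is the median of the named genes. Slc7a11, Gpx3, Gpx4 and Prdx2 lay below it. Prdx5, Prdx6 and G6pdx are not analysed here.

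The cells were sorted from mouse bone marrow as Lin- ckit+ Sca+ Flk2- CD48- CD150+ cells and held overnight in Stemspan SFEM medium. They were then left unirradiated (0 Gy), given 0.02 Gy or given 2.5 Gy of gamma radiation in culture, and RNA was taken 2 hours later, with 1 array for each dose. All 3 groups therefore share the sort, the culture and the harvest time. Strain, sex, age and number of the mice are stated by none of the sources used here. Each array shows 1 sample, so the differences carry no replicate check and no test was run. The series title asks for the immediate response of these cells to low radiation doses, and here the question is how the antioxidant genes read at each dose.

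NRF2, encoded by Nfe2l2, is a transcription factor that is held in check by KEAP1, an adaptor that brings it to a CUL3 ubiquitin ligase for degradation. Oxidants and electrophiles modify KEAP1, and NRF2 then accumulates, pairs with a small MAF protein and binds antioxidant response elements near genes for glutathione synthesis, thioredoxin recycling, quinone reduction and NADPH supply. Haematopoietic stem cells are known to be sensitive to reactive oxygen species, which ionising radiation produces in water, and low levels of these species are a known feature of their quiescence.

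Markers of the sorted cells and of other cell types were read first. Kit was at 8.58, 8.78 and 8.50 (log2 level at 0, 0.02 and 2.5 Gy). Slamf1, the gene for the sort marker CD150, read 5.24, 4.75 and 4.84. The summed level of 13 measured stem cell genes, on the linear scale, was 1220, 1395 and 1268. Among those past the level minimum, differences from unirradiated cells ran from −0.40 (Slamf1) to 0.67 (Hlf) at 2.5 Gy. At 0.02 Gy they ran from −0.49 (Slamf1) to 0.53 (Meis1). Of the 13 stem cell genes, 12 lay past the level minimum. So did 8 of 8 megakaryocyte markers, 7 of 8 stroma and endothelium markers and 5 of 8 erythroid markers. The megakaryocyte gene Pf4 read 9.05, 9.26 and 9.51, and the erythroid marker Car2 8.47, 9.11 and 8.97. All 9 measured lymphoid markers lay below it. The summed level of 9 mature myeloid markers, on the linear scale, was 318 in unirradiated cells, 553 at 0.02 Gy and 623 at 2.5 Gy, and without S100a8 and S100a9 it was 157, 189 and 179. In the same order the sum was 554, 733 and 695 for erythroid markers and 978, 1123 and 1204 for megakaryocyte markers. Single markers did not all follow these sums. Of the 5 erythroid markers past the level minimum, 2 were above unirradiated cells at 2.5 Gy and 1 (Car2) at 0.02 Gy. Of the 8 megakaryocyte markers 3 were above at 2.5 Gy and 7 at 0.02 Gy, against 53.4% and 54.2% of all genes. At 2.5 Gy Pf4 differed by 0.47 and Ppbp by −0.69. For stroma and endothelium markers the sum was 283.5, 328.4 and 296.6, and for lymphoid markers 133, 115 and 122. Ngp, a neutrophil granule gene below the level minimum, had the opposite sign to the myeloid sum, at −0.93 at 2.5 Gy and −0.92 at 0.02 Gy. Also below unirradiated cells were Camp (−0.29) and Ltf (−0.04) at 2.5 Gy, and Ltf (−0.51) and Csf1r (−0.27) at 0.02 Gy. Of the 6 myeloid markers past the level minimum, 3 were at least 2-fold higher on the 2.5 Gy array than on the unirradiated array. These were S100a8, S100a9 and Ly6c2, against 1.15% of all genes. On the 0.02 Gy array 2 were (S100a8 and S100a9), against 1.33% of all genes. The part of these marker differences in the values below was not tested.

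At 2.5 Gy the antioxidant genes as a group read higher than in unirradiated cells, with Gstm2, Nfe2l2, Srxn1 and Fth1 at the top and Mgst2, Gstm1 and Gsta4 at the bottom. The median difference of the 31 genes past the level minimum was 0.34 on the log2 scale, against 0.02 for all 11593 genes past it. Of the 31, 24 (77.4%) were above 0, against 53.4% of all genes, and 7 were at least 1.5-fold higher, against 6.07% of all genes. At least 2-fold higher were 2 genes (1.15% of all genes), none was at least 2-fold lower (0.578% of all genes), and 2 were at least 1.5-fold lower (3.44% of all genes). The 2 genes past 2-fold were Gstm2 and Nfe2l2, and Srxn1 lay just short of it. Gstm2, Srxn1 and Keap1 were below the level minimum in unirradiated cells and passed it on the mean of the 3 arrays only through the irradiated ones. Among the 28 members at or above it on both the 2.5 Gy and the unirradiated array, an alternative chosen after seeing the data, 1 (Nfe2l2) was at least 2-fold higher, against 0.942% of the 10833 genes kept in the same way, and the median was 0.30.

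At 0.02 Gy the shift of the median was smaller, with Gsto1, Gstm2 and Gstp1 highest. The median difference from unirradiated cells was 0.19, against 0.04 for all genes, and again 24 of the 31 genes were above 0, against 54.2% of all genes. At least 2-fold higher were 2 genes, Gsto1 and Gstm2 (1.33% of all genes). At least 1.5-fold higher were 5 genes (7.50% of all genes). None of the 31 was 2-fold lower (1.14% of all genes) or 1.5-fold lower (4.72% of all genes), and the lowest difference among them was Mgst2 at −0.18. Below the level minimum, Gpx4 was lower by more, at −0.62. At or above the minimum on both the 0.02 Gy and the unirradiated array were 28 members, with 1 gene (Gsto1) at least 2-fold higher, against 1.03% of the genes kept in the same way, and a median of 0.13. These comparisons share the unirradiated array, so a high or low reading on it enters each of them.

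**Figure D1:**
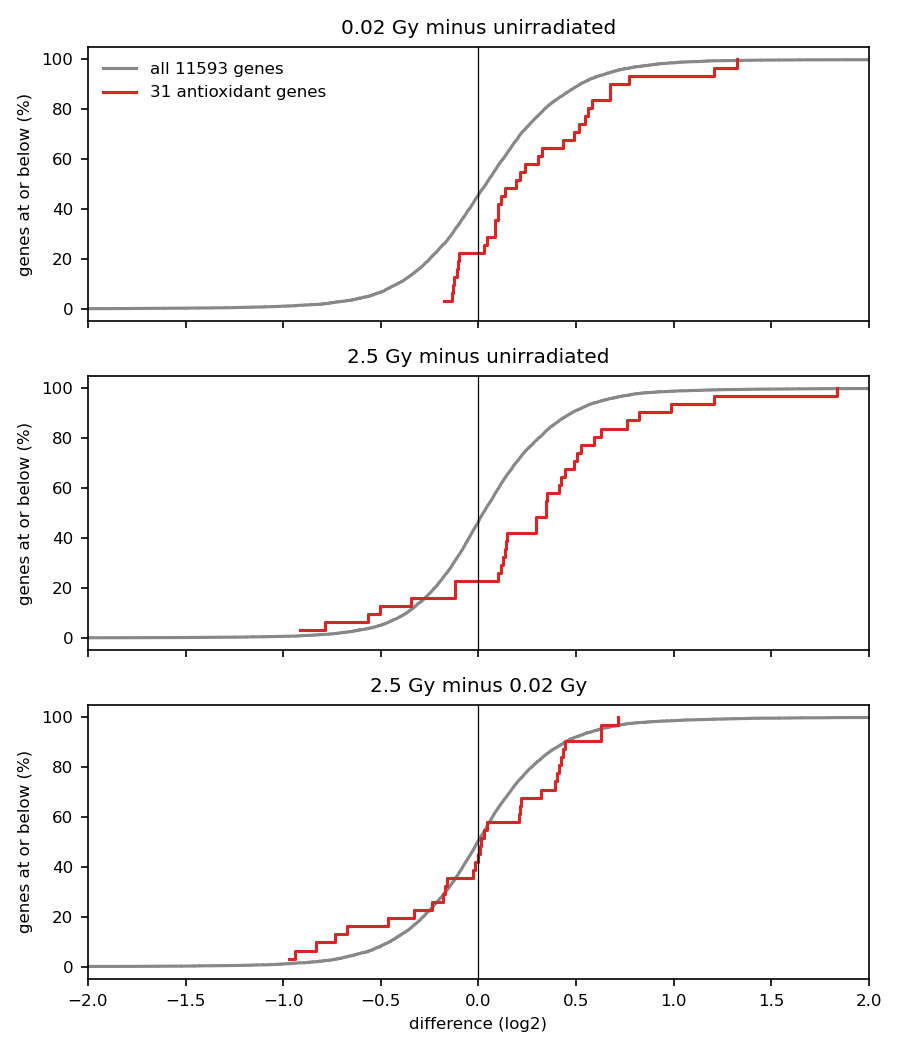
Cumulative share of genes (vertical axis, percent) by log2 difference between arrays (horizontal axis) for the 31 antioxidant genes past the level minimum (red) and all 11593 genes past it (grey), in 3 comparisons. The red line lies to the right of the grey one over most of its length for 0.02 Gy and for 2.5 Gy minus unirradiated, with medians of 0.19 and 0.34, and crosses it for 2.5 Gy minus 0.02 Gy, where the median is 0.01; the axis stops at −2 and 2, and some of the grey genes lie outside it.

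Part of the shift moved with level. In the top decile of genes by level, which holds 8 of the 31 members, the median difference of all genes was 0.15 at 2.5 Gy and 0.21 at 0.02 Gy, while in the lowest decile it was −0.06 and −0.07. After loess scaling over level, the members' median was 0.21 at 2.5 Gy and 0.11 at 0.02 Gy, against −0.004 and −0.002 for all genes. On that scale 22 and 19 of the 31 were above 0, and the share of all genes above 0 was not counted. In a mixed RNA sample, fewer cells expressing a gene and less of its RNA in each cell cannot be told apart.

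Between the irradiated arrays, the members split. In 2.5 Gy minus 0.02 Gy the median was 0.01, 17 of 31 were above 0 (49.4% of all genes), and none was 2-fold higher or lower (1.44% and 1.06% of all genes). At least 1.5-fold higher were 3 genes, Nfe2l2, Gstm2 and Fth1 (5.74% of all genes). At least 1.5-fold lower were 5 genes, Gsto1, Mgst1, Gstm1, Mgst2 and Prdx1 (5.67% of all genes). By the order of the 3 arrays, 12 of the 31 genes (38.7%) climbed with each dose step, against 16.9% of all genes: Nfe2l2, Gsr, Prdx3, Txn1, Srxn1, Sod2, Cat, Hmox1, Fth1, Gstm2, Gstm5 and Pgd. After quantile normalization 10 of them did (15.7% of all genes) and after loess the same 10 (15.4% of all genes), without Cat and Fth1. A further 9 were lowest in unirradiated cells and highest at 0.02 Gy, or 7 after quantile normalization or loess, without Gpx1 and Sod1. The share of all genes with this order was not counted. Highest at 0.02 Gy in any order were 12 of the 31, against 37.4% of all genes. Lowest in unirradiated cells were 21 of the 31, also against 37.4% of all genes. The 21 include Keap1, Srxn1 and Gstm2, which passed the level minimum only through the irradiated arrays, and the climbing genes include Srxn1 and Gstm2. The minimum thus favoured these orders for them, and no count without them was taken. The 21 also include Gpx1, Sod1, Cat and Fth1, which were not lowest in unirradiated cells at both doses after quantile normalization or loess.

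**Figure D2:**
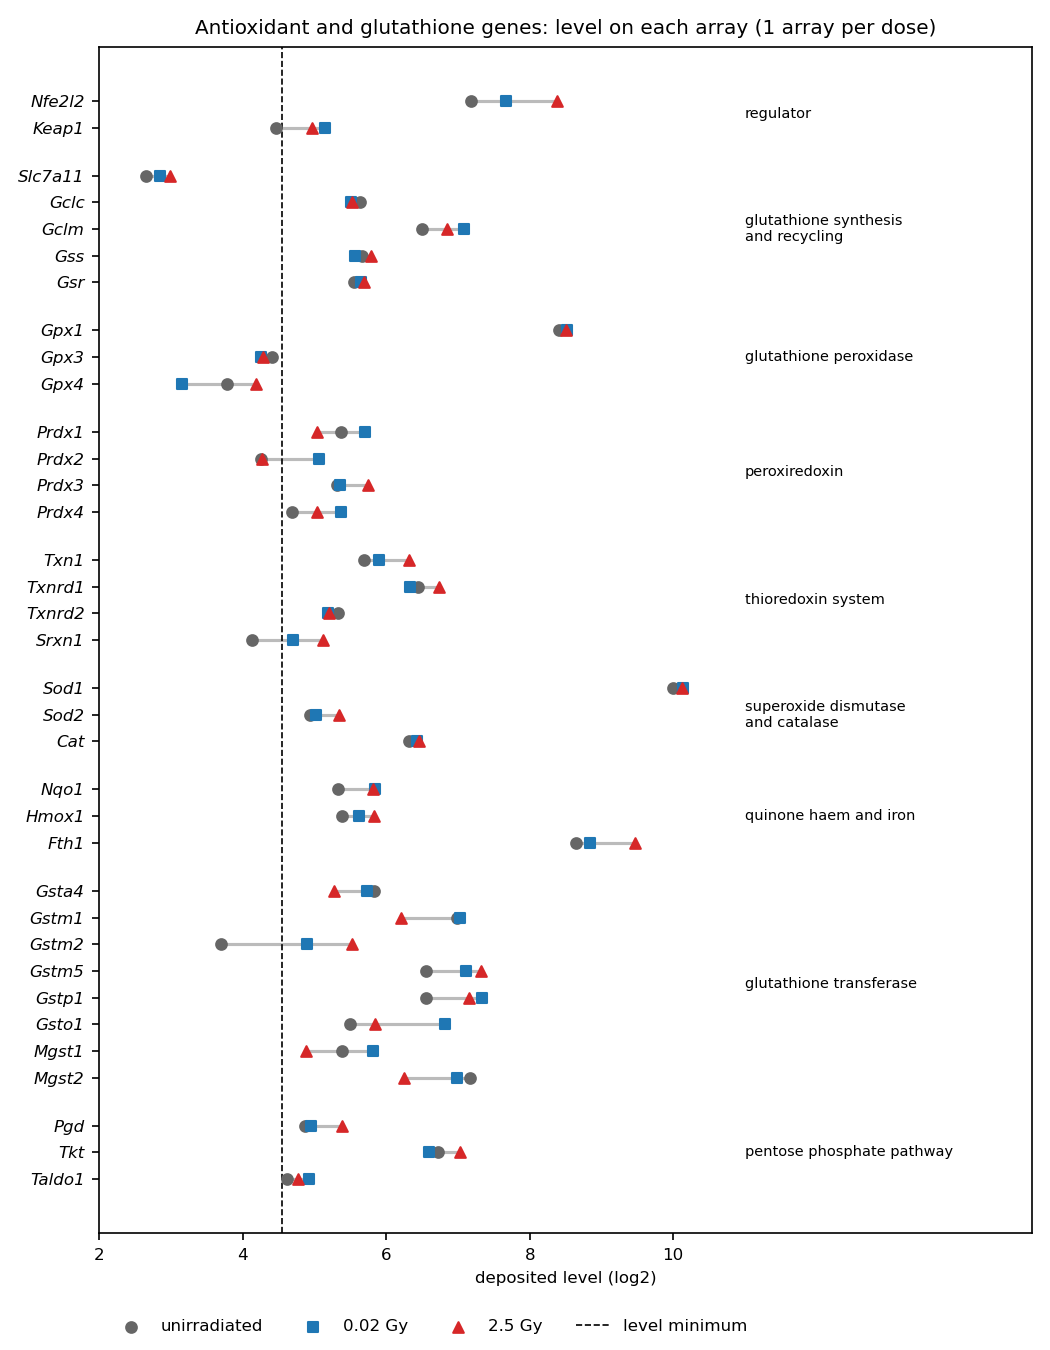
Deposited log2 level (horizontal axis) of the 35 measured genes on the unirradiated (grey circle), 0.02 Gy (blue square) and 2.5 Gy (red triangle) arrays, 1 array per dose, grouped by role; the dashed line is the level minimum of 4.553. Nfe2l2, Fth1, Srxn1 and Gstm2 step up from the unirradiated to the 2.5 Gy array, Gsto1 stands out at 0.02 Gy, and Gstm1 and Mgst2 stand lowest at 2.5 Gy. Levels of different genes come from different probes and are not comparable.

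The regulator Nfe2l2 read 7.18 in unirradiated cells, 7.67 at 0.02 Gy and 8.38 at 2.5 Gy (log2 level). It was highest at 2.5 Gy, and the low-dose value lay between the others. The difference at 2.5 Gy was 1.21, a 2.31-fold difference that ranked 75th from the top of 11593 genes, while the middle 90% of all genes ran from −0.50 to 0.63. It was 0.998 after quantile normalization and 1.03 after loess. At 0.02 Gy the difference was 0.49, which was 0.27 after quantile normalization and 0.26 after loess. Keap1, its inhibitor, read 4.47, 5.14 and 4.97 in the same order, so it was higher on the irradiated arrays by 0.50 at 2.5 Gy and 0.68 at 0.02 Gy, with the unirradiated level below the level minimum.

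The bases upstream of Nfe2l2 are shown because NRF2 sites are known near many of its target genes. The 250 bases before the RefSeq transcript start lie at chr2:75704664-75704913, minus strand, in GRCm38.p6, and the capitals mark a match to TGACNNNGC, the core of the antioxidant response element, at −240 to −232 from the start.
Nfe2l2: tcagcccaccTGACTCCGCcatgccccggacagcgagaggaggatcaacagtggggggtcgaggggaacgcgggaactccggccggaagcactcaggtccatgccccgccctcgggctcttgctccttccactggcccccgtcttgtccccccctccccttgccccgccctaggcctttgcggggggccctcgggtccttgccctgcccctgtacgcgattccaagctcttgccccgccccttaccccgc
The core was searched on both strands in 250-base windows. It was found in 7 of 40 RefSeq windows of 31 member genes (17.5%), against 10.2% of 32851 windows of all genes in the table. These 31 are the measured members with a window, not the 31 past the level minimum. Gclc, Gsr, Hmox1 and Gsta4 had no window and were not searched. The genes were Nfe2l2, Gclm, Prdx1, Txnrd1, Sod1, Gstm5 and Mgst1. TGACTCA, the AP-1 site, whose letters overlap the core in the Prdx1 match TGACTCAGC, was found in 5 windows of the members (12.5%) and in 4.46% of all windows. A match describes letters and not binding, and neither other forms of the core nor elements outside these windows were searched.

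Among the genes for glutathione synthesis and recycling, differences were small apart from Gclm. Gclm, the modifier subunit of glutamate-cysteine ligase, the rate-limiting enzyme of glutathione synthesis, read 6.50, 7.09 and 6.85 (0, 0.02 and 2.5 Gy). It was higher by 0.34 at 2.5 Gy and by 0.58 at 0.02 Gy. The catalytic subunit Gclc read 5.64, 5.51 and 5.52, so the irradiated arrays lay 0.12 below the unirradiated one. Gss, glutathione synthetase, differed by 0.11 at 2.5 Gy and −0.10 at 0.02 Gy, and Gsr, the reductase that regenerates glutathione, by 0.15 and 0.10. These values lie well inside the middle 90% of all genes. Slc7a11, the cystine transporter that supplies cysteine, lay far below the level minimum at 2.66, 2.84 and 2.99.

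Of the 3 measured peroxidases that use glutathione, only Gpx1 lay past the level minimum, and it showed no difference past 1.5-fold. Gpx1, the abundant cytosolic form, read 8.41, 8.52 and 8.51; its differences of 0.10 at 2.5 Gy and 0.12 at 0.02 Gy were −0.13 and −0.14 after quantile normalization and −0.08 and −0.13 after loess. Gpx3, the secreted form, lay below the level minimum at 4.40, 4.26 and 4.28. Gpx4, which reduces lipid hydroperoxides, also lay below it, at 3.78, 3.16 and 4.19, and the spread of these low readings reached 1.03 between the irradiated arrays.

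The peroxiredoxins, peroxidases that take electrons from thioredoxin, gave different orders of the arrays. Prdx1, a cytosolic form, read 5.37, 5.70 and 5.03, highest at 0.02 Gy and lowest at 2.5 Gy. Prdx2, the other main cytosolic form, was below the level minimum on average and read 4.26, 5.07 and 4.27, so it was higher at 0.02 Gy by 0.81. Prdx4, the form of the endoplasmic reticulum, read 4.69, 5.37 and 5.04. Prdx3, the mitochondrial form, read 5.32, 5.35 and 5.74 and was higher by 0.42 at 2.5 Gy and by 0.03 at 0.02 Gy. Thus Prdx1, Prdx2 and Prdx4 were highest at 0.02 Gy, and Prdx3 at 2.5 Gy.

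In the thioredoxin system, the cytosolic members were higher at 2.5 Gy. Srxn1, sulfiredoxin, which repairs overoxidised peroxiredoxins and is a well known NRF2 target, read 4.14, 4.70 and 5.12, with the unirradiated level below the level minimum. Its difference was 0.99 at 2.5 Gy, a 1.98-fold difference ranking 142nd from the top, and 0.56 at 0.02 Gy. It was 1.03 or 1.04 at 2.5 Gy under each of the 3 other scalings. Txn1, thioredoxin, read 5.68, 5.90 and 6.31, a difference of 0.63 at 2.5 Gy and 0.21 at 0.02 Gy. Txnrd1, its cytosolic reductase, was higher by 0.29 at 2.5 Gy and at −0.11 at 0.02 Gy. Txnrd2, the mitochondrial reductase, read 5.32, 5.19 and 5.20, lower on the irradiated arrays by 0.12 at 2.5 Gy and 0.13 at 0.02 Gy.

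The window upstream of Srxn1, chr2:152105274-152105523 on the plus strand in GRCm38.p6, is shown with TGACTCA in capitals, which reads TGAGTCA on the printed strand. The 2 matches lie at −102 to −96 and at −45 to −39 from the start, and this window has no match to TGACNNNGC. The second match continues as TGAGTCAGC, which differs from TGACNNNGC only in a G in place of the C. Such forms of the core were not searched, so the missing match does not show that the window lacks an antioxidant response element. The window was chosen after the values of the gene were seen.
Srxn1: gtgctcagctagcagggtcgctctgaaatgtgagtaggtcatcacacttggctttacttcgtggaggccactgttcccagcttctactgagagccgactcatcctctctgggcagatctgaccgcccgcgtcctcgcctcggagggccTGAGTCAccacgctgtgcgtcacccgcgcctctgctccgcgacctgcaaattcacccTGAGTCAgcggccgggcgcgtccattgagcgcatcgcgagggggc

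The superoxide dismutase and catalase genes each differed by less than 1.5-fold between any of the 3 arrays. Sod1, the cytosolic copper and zinc enzyme, read 9.99, 10.13 and 10.13, and its differences from unirradiated cells of 0.13 at 2.5 Gy and 0.14 at 0.02 Gy turned negative after quantile normalization (−0.01 and −0.03) and loess (−0.05 and −0.09). Sod2, the mitochondrial manganese enzyme, read 4.93, 5.02 and 5.35, a difference of 0.41 at 2.5 Gy and 0.09 at 0.02 Gy. Cat, catalase, read 6.32, 6.42 and 6.45, and its difference of 0.10 at 0.02 Gy was −0.04 after quantile normalization and after loess.

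Among the genes for quinone, haem and iron handling, all 3 were higher on the irradiated arrays in the deposited values, and Fth1 turned sign at 0.02 Gy under other scalings. Fth1, the ferritin heavy chain, which stores iron in a form that cannot drive radical chemistry, read 8.64, 8.84 and 9.46. The difference at 2.5 Gy was 0.82, a 1.77-fold difference ranking 247th from the top, and that at 0.02 Gy was 0.19, or −0.09 after quantile normalization and −0.05 after loess. Nqo1, a quinone reductase and a standard NRF2 target, read 5.33, 5.84 and 5.81, so the differences at 2.5 and 0.02 Gy were alike at 0.49 and 0.52. Hmox1, which degrades haem, read 5.38, 5.62 and 5.83, a difference of 0.45 at 2.5 Gy and 0.24 at 0.02 Gy.

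**Figure D3:**
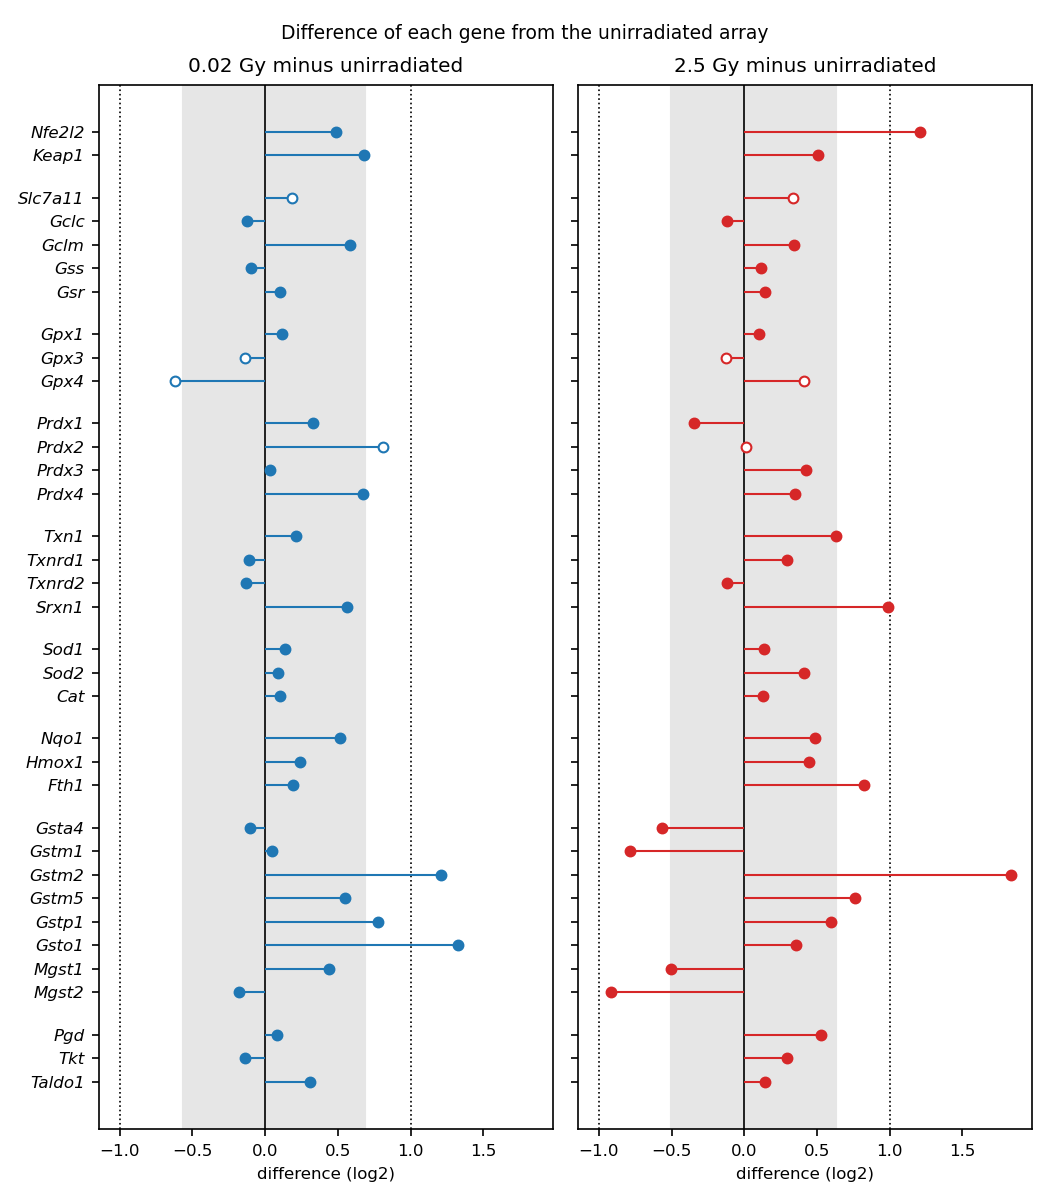
Log2 difference from the unirradiated array (horizontal axis) of the 35 measured genes at 0.02 Gy (left) and 2.5 Gy (right), in the order of their roles; open circles are the 4 genes below the level minimum, grey bands hold the middle 90% of all 11593 genes, and dotted lines mark 2-fold. Gsto1 and Gstm2 pass 2-fold at 0.02 Gy, and Gstm2 and Nfe2l2 at 2.5 Gy. Mgst2, Gstm1 and Gsta4 lie to the left of the band at 2.5 Gy, and Mgst1 lies just past its left edge.

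The glutathione transferases join glutathione to electrophiles. Among members past the level minimum they held the highest and the lowest difference from unirradiated cells at each dose. At 2.5 Gy 4 of the 8 were above unirradiated cells (53.4% of all genes) and 4 below. Their median was −0.07 (0.02 for all genes), with a range from −0.91 to 1.84. At 0.02 Gy 6 of the 8 were above (54.2% of all genes), with a median of 0.49 (0.04 for all genes). In 2.5 Gy minus 0.02 Gy the median was −0.60 (−0.0025 for all genes). At least 1.5-fold lower there were 4 of the 8 (5.67% of all genes).

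Gstm2, a mu-class enzyme, read 3.69 in unirradiated cells, 4.90 at 0.02 Gy and 5.53 at 2.5 Gy, and so lay below the level minimum on the unirradiated array only. The difference was 1.84 at 2.5 Gy, the 16th highest of 11593 genes, and 1.21 at 0.02 Gy, the 61st highest. How far the unirradiated reading stands above background cannot be said, since no background signal was used here. Gstm5, also of the mu class, read 6.56, 7.11 and 7.32, a difference of 0.76 at 2.5 Gy and 0.55 at 0.02 Gy. Gstm1 had the opposite sign at 2.5 Gy: it read 6.99, 7.03 and 6.20 in the same order, a difference of −0.79 at 2.5 Gy and 0.04 at 0.02 Gy (−0.15 after quantile normalization and −0.13 after loess).

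These 3 genes belong to a cluster of 7 mu-class genes that follow each other along chromosome 3, in the order Gstm5, Gstm7, Gstm6, Gstm3, Gstm2, Gstm1 and Gstm4 in the RefSeq annotation of GRCm38.p6. At 2.5 Gy the differences in that order were 0.76, −0.15, −0.04, 0.11, 1.84, −0.79 and 0.14. Gstm2 and Gstm1, next to each other in that order, therefore lay at opposite ends. At 0.02 Gy the differences in that order were 0.55, −0.20, 0.12, −0.55, 1.21, 0.04 and 0.21. Gstm6 and Gstm3 lay below the level minimum. The genes are close relatives in sequence, and how far the probes of one read transcripts of another was not tested.

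**Figure D4:**
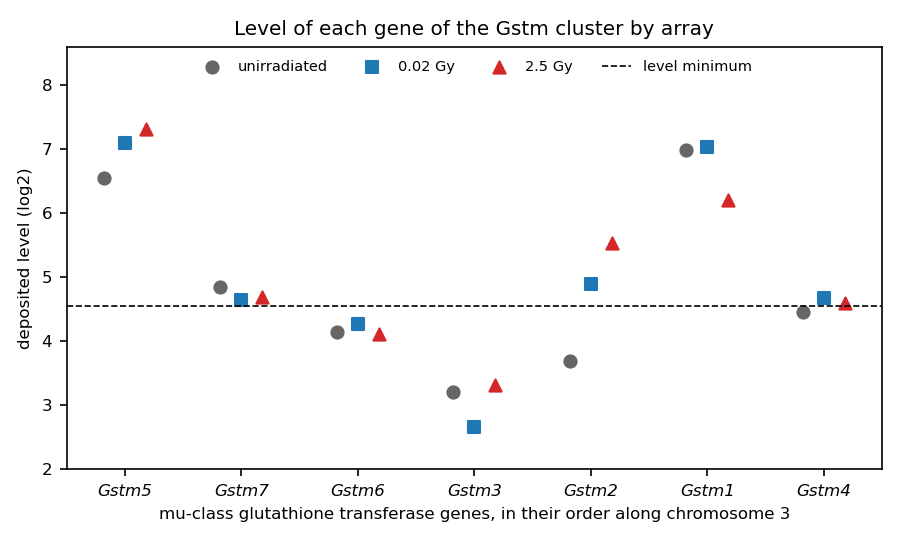
Deposited log2 level (vertical axis) of the 7 mu-class glutathione transferase genes in their order along chromosome 3, on the unirradiated (grey circle), 0.02 Gy (blue square) and 2.5 Gy (red triangle) arrays; the dashed line is the level minimum of 4.553. Gstm2 climbs through 3.69, 4.90 and 5.53, its neighbour Gstm1 is lowest at 2.5 Gy, and Gstm7, Gstm6 and Gstm4 differ by at most 0.21 over the 3 arrays.

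The omega-class gene Gsto1 stood out at the low dose. It read 5.49 in unirradiated cells, 6.81 at 0.02 Gy and 5.84 at 2.5 Gy, so the low-dose array was high and the others lay near each other. The difference was 1.32 at 0.02 Gy, a 2.50-fold difference, and 0.35 at 2.5 Gy. Gstp1, the pi-class enzyme, read 6.56, 7.33 and 7.15, a difference of 0.59 at 2.5 Gy and 0.77 at 0.02 Gy. Gsta4, an alpha-class enzyme that acts on the lipid peroxidation product hydroxynonenal, read 5.83, 5.73 and 5.27, a difference of −0.56 at 2.5 Gy and −0.10 at 0.02 Gy.

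The microsomal enzymes were lower at 2.5 Gy. Mgst2, a membrane-bound transferase that also makes leukotriene C4, read 7.17, 6.99 and 6.25. Its difference of −0.91 at 2.5 Gy was the 96th lowest of 11593 genes, and it passed 2-fold after quantile normalization (−1.07) and loess (−1.04). Mgst1 read 5.38, 5.82 and 4.88, a difference of −0.50 at 2.5 Gy and 0.44 at 0.02 Gy, and so had opposite signs at the 2 doses.

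The windows upstream of the transferases highest at either dose are shown for comparison with that of Nfe2l2. They lie at chr3:107986421-107986670, minus strand (Gstm2), chr19:47854723-47854972, plus strand (Gsto1), and chr3:107895604-107895853, plus strand (Gstm5), in GRCm38.p6. Gstm5 was added after its values were seen; its capitals mark TGACTCA at −176 to −170 and TGACCACGC, a match to TGACNNNGC, at −42 to −34, and the windows of Gstm2 and Gsto1 hold neither motif.
Gstm2: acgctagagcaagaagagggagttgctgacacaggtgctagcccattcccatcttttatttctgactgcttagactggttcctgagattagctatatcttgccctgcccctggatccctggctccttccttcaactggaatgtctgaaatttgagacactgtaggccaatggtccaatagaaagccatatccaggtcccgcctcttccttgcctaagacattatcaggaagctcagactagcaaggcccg
Gsto1: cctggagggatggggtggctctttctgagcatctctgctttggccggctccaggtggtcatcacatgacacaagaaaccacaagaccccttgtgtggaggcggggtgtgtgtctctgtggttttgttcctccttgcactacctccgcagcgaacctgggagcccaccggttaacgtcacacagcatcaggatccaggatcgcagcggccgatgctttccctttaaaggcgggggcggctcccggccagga
Gstm5: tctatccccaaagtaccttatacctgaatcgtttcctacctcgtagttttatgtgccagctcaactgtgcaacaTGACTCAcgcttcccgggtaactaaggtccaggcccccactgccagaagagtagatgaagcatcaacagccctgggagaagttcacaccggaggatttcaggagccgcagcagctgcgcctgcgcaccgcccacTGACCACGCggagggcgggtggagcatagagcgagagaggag

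The pentose phosphate pathway supplies the NADPH that glutathione and thioredoxin reductases use. Pgd, which makes NADPH in its oxidative branch, read 4.86, 4.95 and 5.39, a difference of 0.53 at 2.5 Gy and 0.08 at 0.02 Gy. Tkt, transketolase, was higher by 0.30 at 2.5 Gy and at −0.14 at 0.02 Gy. Taldo1, transaldolase, differed by 0.14 at 2.5 Gy and 0.31 at 0.02 Gy. All 3 were above unirradiated cells at 2.5 Gy, and none passed 1.5-fold.

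A further list of 62 redox genes outside the 38, of which 61 were measured and 48 lay past the level minimum, was read the same way. Its median difference was 0.09 at 2.5 Gy and 0.18 at 0.02 Gy, against 0.02 and 0.04 for all genes. At 2.5 Gy 2 of the 48 were at least 2-fold higher (1.15% of all genes) and none lower (0.578% of all genes). Mafg, a small MAF partner of NRF2, read 4.45, 5.03 and 5.89, a difference of 1.44 at 2.5 Gy and 0.58 at 0.02 Gy, with the unirradiated level below the level minimum. Sqstm1, which encodes p62, an autophagy receptor that binds KEAP1, read 7.65, 7.80 and 8.80, a difference of 1.15 at 2.5 Gy and 0.15 at 0.02 Gy. For Sqstm1 the difference at 2.5 Gy was under 2-fold after quantile normalization (0.95) and loess (0.96), and that at 0.02 Gy turned to −0.08 and −0.09. Cul3, the ligase scaffold that KEAP1 uses, was higher by 0.50 at 2.5 Gy and 0.51 at 0.02 Gy, Bach1, a repressor at the same elements, by 0.11 and 0.16, and both were named after their values were seen.

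At 0.02 Gy, 2 of these 48 genes were at least 2-fold higher (1.33% of all genes) and none lower (1.14% of all genes). Nnt, the mitochondrial enzyme that makes NADPH from NADH, read 4.86, 5.98 and 5.59, a difference of 0.73 at 2.5 Gy and 1.12 at 0.02 Gy. Ephx1, a microsomal epoxide hydrolase, read 5.24, 6.25 and 5.72, a difference of 0.48 at 2.5 Gy and 1.02 at 0.02 Gy; the difference at 0.02 Gy was under 2-fold after quantile normalization (0.97) and loess (0.96). In 2.5 Gy minus 0.02 Gy none of the 48 passed 2-fold in either direction, although Sqstm1 did after quantile normalization (1.04) and loess (1.05).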

How the data were processed

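Expression was measured on 3 Affymetrix whole-transcript arrays, 1 per dose. The values are the authors' deposited log2 levels, 1 for each of 25206 probe sets with an Entrez gene ID. The submitters' processing notes list Partek alone; how background, normalization and summarisation were done is not stated in them. That the scale is log2 was inferred from its range, 1.55 to 12.4.

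Genes were named from the platform annotation table, and 2021 probe sets without a name there were left out. Differences were taken gene by gene in 3 comparisons with Python 3.11.15, pandas 2.3.3 and statsmodels 0.14.6, and counted at 2-fold. No test was possible with 1 array per dose, and the number of arrays limits the precision. Signal over background is unknown. The counting was tested on simulated data. Alternatives were other level minimums, quantile normalization, median centring, loess (span 0.3), 1.5-fold and means.

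The members and lists were chosen with earlier results of these data known. All members are named, other redox genes where they passed 2-fold, and exceptions are marked. Upstream windows came from RefSeq tables of GRCm38.p6, matched by gene identifier for 31 of the 35 measured members.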

Additional observations from a re-analysis of the deposited data

How the results depend on the processing

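No paired analysis was possible because a dose is 1 array only. For 2.5 Gy minus unirradiated, the members' median moved from 0.34 to 0.21 after quantile normalization and to 0.21 after loess. The median of all genes was then −0.01 and −0.004. The 2 members at least 2-fold higher became 1 with the minimum at the 75th percentile of level (5.463), 3 after median centring and after loess, and 7 at 1.5-fold. The count stayed at 2 after quantile normalization, where Srxn1 (1.03) passed and Nfe2l2 (0.998) did not. Members at least 2-fold lower, 0 in the deposited values, were 1 after quantile normalization and 1 after loess (Mgst2 in each), and 2 at 1.5-fold. For 0.02 Gy minus unirradiated, the 2 members higher became 1 at the 75th percentile and 5 at 1.5-fold. For 2.5 Gy minus 0.02 Gy, members higher went from 0 to 1 (Gpx4) without a level minimum and to 3 at 1.5-fold, and members lower to 5 at 1.5-fold; the median was 0.01, and it was −0.01 after median centring and as a mean. Where each of the compared arrays had to reach the level minimum, an alternative chosen after seeing the data, 1 member was higher at 2.5 Gy and 1 at 0.02 Gy. Of 315 recomputed differences of single members, 48 moved by over 0.1, all under quantile normalization or loess, and none past 2-fold changed sign. Gpx1, Sod1, Cat, Fth1 and Gstm1 turned sign at 1 dose or both under these scalings, as given above.

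For the 48 other redox genes, alternatives were chosen after seeing the data. The 2 higher at 2.5 Gy became 1 at the 75th percentile, after quantile normalization and after loess. At 1.5-fold 4 were higher (8.33%, against 6.07% of all genes) and 1 lower (2.08%, against 3.44%). The 2 higher at 0.02 Gy became 1 after quantile normalization and loess, and 1 was lower without a level minimum. At 1.5-fold 4 were higher there (8.33%, against 7.50% of all genes). In 2.5 Gy minus 0.02 Gy, 1 was higher without a level minimum, after quantile normalization and after loess. At 1.5-fold 3 were higher and 3 lower (6.25% each, against 5.74% and 5.67% of all genes). The fold size and the level minimum set which genes can be counted; the cause of the other moves was not tested. Without replicates or signal over background, low readings such as those of Gstm2 and Gpx4 cannot be set against their error.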

Other observations

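Genes that produce oxidants in phagocytes, the NADPH oxidase subunits and myeloperoxidase, were read beside the antioxidant genes. Of 9 measured genes 5 lay past the level minimum, and none was at least 2-fold higher or lower in any comparison. Over all genes these shares ran from 0.578% to 1.44%. The median difference of the 5 was 0.00 at 2.5 Gy, and −0.13 at 0.02 Gy with 1 of 5 above 0. Mpo, myeloperoxidase, read 5.29 in unirradiated cells, 5.45 at 0.02 Gy and 5.99 at 2.5 Gy, a difference of 0.70 at 2.5 Gy. Cyba, the p22phox subunit, read 5.01, 4.89 and 5.42, a difference of 0.41. Cybb, the catalytic subunit of the phagocyte oxidase, was under the level minimum at each dose, at 3.33, 3.45 and 3.54. Nox4, a constitutively active oxidase, read 5.57, 5.53 and 5.27, a difference of −0.30 at 2.5 Gy. Ncf1 and Ncf4 differed by −0.06 and 0.00 at 2.5 Gy.

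The sestrins, p53-linked stress proteins that promote peroxiredoxin recycling, were named after their values were seen. Sesn1 was highest at 0.02 Gy, with a difference of 0.88 there and 0.29 at 2.5 Gy. Sesn3 gave the same order of the arrays, at 4.61, 5.15 and 4.95. Sesn2 alone was highest at 2.5 Gy, at 3.73, 3.61 and 4.59, and it lay below the level minimum on average. Txn2, the mitochondrial thioredoxin, also named after its values were seen, read 7.32, 7.35 and 6.62, so the 2.5 Gy array was low by 0.71, whereas the cytosolic Txn1 was high on that array.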
